A study of Homo sapiens with 42 samples.

Results

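The genes described here are the RNA helicases DDX5, DDX17, EIF4A1, EIF4A2 and EIF4A3, together with EIF4H, a helper of eIF4A, and DMC1, the gene that lies just upstream of DDX17 and that the study named in a DMC1-DDX17 chimeric transcript. They were taken as the rows of both count tables whose Ensembl identifiers carry these 7 symbols, 7 of 58243 genes, and all 7 were abundant enough to be tested in both kinds of library. The cells were K562, a human line grown from a chronic myeloid leukemia in blast crisis that depends on the BCR-ABL1 kinase. Cells were left untreated (CTRL), or received imatinib (IM, a BCR-ABL1 inhibitor, 1 µM) for 1, 6 or 18 h, JTE-607 (JTE, an inhibitor of the CPSF73 endonuclease that cuts pre-mRNA at its 3′ end, 5 µM) for 1, 6 or 18 h, or KCl added at 110 mM, a hyperosmotic shock, for 1 or 3 h. Polyadenylated RNA was sequenced from all 9 of these groups, and rRNA-depleted RNA of isolated nuclei from CTRL, IM 1h, IM 18h, JTE 1h and KCl 1h. Each of the 14 groups had 3 libraries, labelled as biological replicates, so that every comparison was 3 libraries against 3, and all treated groups of a fraction were compared with the same 3 CTRL libraries. K562 is a single cell line, and no second line or untransformed cell was in these tables.

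DEAD-box helicases use ATP to pry apart short RNA duplexes and to strip proteins from RNA. DDX5 (p68) and DDX17 (p72) are close paralogs that work together in splicing, in the Microprocessor step of microRNA processing, in transcriptional co-activation and in 3′-end formation. EIF4A1 and EIF4A2 are the near-identical helicases of the eIF4F complex, which opens the leader of an mRNA for the ribosome, and EIF4H is an RNA-binding cofactor that stimulates them. EIF4A3, despite its name, is the helicase that clamps the exon junction complex onto spliced mRNA, a mark read by nonsense-mediated decay. DMC1 is the recombinase of meiosis and is normally restricted to germ cells.

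Totals per library were 16439848 to 62953314 counted read pairs in the mRNA set and 16175394 to 25103205 in the nuclear set, and the deepest libraries were KCl 1h replicates 2 and 3 of the mRNA set, at 62953314 and 42474454. All 9 K562 genes examined, among them GATA1, TAL1 and the fetal and embryonic globins, were above 10 CPM (counts scaled to a common library total with TMM) in CTRL of both fractions. Of 7 genes typical of other cells, 5 were under 1 CPM, and EPCAM, at 91.1 CPM in mRNA CTRL, was the highest. With IM 18h the summed level of the K562 genes lay between 4648 and 5930 CPM in the CTRL libraries and between 11620 and 16220 CPM in the treated ones in mRNA. Of the 9 genes, 6 were called higher, where 30.5% of all genes were called in either direction. GATA1 did not rise, with a mean of 166 CPM in CTRL and 144 at IM 18h. BCR went from 144 to 142 CPM and ABL1 from 312 to 303. The called genes moved in the same libraries as the helicases below, and whether one bears on the other was not tested. The summed level of the genes of other cells was 90.2 to 98.3 CPM in CTRL and 85.2 to 91.7 CPM in IM 18h of the mRNA set, and 64.5 to 84.2 against 56.8 to 68.1 CPM in nuclei. MS4A1 and KRT5 were at 0 in every CTRL library, while COL1A1, at 0.529 CPM in mRNA CTRL, rose at IM 18h by 1.40 on the log2 scale in mRNA and by 2.42 in nuclei. In bulk RNA, a change in the share of cells that express a gene and a change in the RNA per cell cannot be told apart.

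What a count of these genes holds differed from gene to gene. Read pairs that could not be assigned to a single gene had been dropped, and strand was not used. Coordinates are those of the count tables on GRCh38. EIF4A1 (chromosome 17, 7572706 to 7579005, plus strand) is the extreme: 1758 of the 1758 bases of its canonical mRNA are also exon of other listed genes, among them the SENP3-EIF4A1 readthrough gene and the lncRNA ENSG00000264772. The 2733 bases that belong to EIF4A1 alone all lie outside the canonical exons, in other annotated isoforms. How many counted pairs also reached a canonical exon was not examined, and the count is no measure of the canonical EIF4A1 mRNA. EIF4A2 (chromosome 3, 186783205 to 186789900, plus strand) has 91.6% of its span annotated as exon by one isoform or another, so pairs from its introns were counted, and an isoform with the extra exon that triggers decay was not separated from the coding one. DDX5 (chromosome 17, 64499616 to 64508199, minus strand) was likewise 85.3% exon. DDX17 (chromosome 22, 38483440 to 38507660, minus strand) and EIF4A3 (chromosome 17, 80135214 to 80147183, minus strand) were 41.3% and 41.5% exon. Of the countable bases unique to each gene, the part outside the canonical exons was 66.2% for EIF4A3, 65.1% for DDX5, 64.1% for EIF4A2 and 52.4% for DDX17. These are shares of bases and not of reads. Reads from such bases entered the counts of all 4 genes. EIF4H (chromosome 7, 74174245 to 74197101, plus strand) and DMC1 (chromosome 22, 38518949 to 38570286, minus strand) had the smallest exon shares of the 7, with 6.86% for DMC1, so their counts are closest to those of spliced RNA. For DDX5 and EIF4A3 the counted exons stop short of the canonical 3′ end in GENCODE 44, at 64498254 and 80134369, and the last part of those mRNAs was outside the counts.

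DMC1 and DDX17 lie head to tail on the minus strand. From the end of DMC1 to the start of DDX17 there are 11288 bases with no other annotated gene inside. The last 30 bases of the canonical transcripts are shown because a chimera of this pair has to skip the cleavage site of DMC1, and because JTE-607 acts at that step. The DMC1 window is chr22:38518948-38518977, the DDX17 window chr22:38483438-38483467, the DDX5 window chr17:64498254-64498283 and the EIF4A3 window chr17:80134369-80134398, all on the minus strand of GRCh38, read from the GENCODE 44 transcripts, with the polyadenylation signal in capitals.
DMC1: aaacaAATAAAatcctgttttcaaaatgca
DDX17: aggtataAATAAAaacactgttgacaataa
DDX5: cttaactAATAAAtgtgatttttctcccca
EIF4A3: ttATTAAAgtatttaagttatctgttgaaa
Of the 7 genes, 6 hold AATAAA within the last 30 bases, and EIF4A3 is the one that has the weaker variant ATTAAA, 22 bases from its end. For comparison, 69.6% of 20046 canonical protein-coding transcripts hold one of these hexamers in the same window, searched on the transcript strand alone, and 56.6% hold AATAAA. The aligner settings in the study's methods capped introns below the 11288 bases between these genes. A splice from a DMC1 exon to a DDX17 exon could therefore not be aligned as such. Where read pairs of a chimera were counted, if at all, cannot be told from these counts.

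In untreated cells, levels per kb of annotated exon placed EIF4H highest among the 7, at 173 ± 6.30 CPM per kb in mRNA (SD, n = 3), above 99.1% of the 18095 genes tested. DDX5 followed at 105 CPM per kb, and DDX17 and EIF4A2 stood close together at 54.3 and 53.6 CPM per kb. EIF4A3 was at 29.0 CPM per kb. DMC1 was at 1.58 CPM per kb, above 40.9% of tested genes, which is a low but measurable level for a meiotic gene. Exon length here sums over all annotated isoforms, which lowers the values per kb of genes with many of them. The nuclear libraries gave nearly the same order, with EIF4H at 154, DDX5 at 81.4 and DDX17 at 64.7 CPM per kb. In CPM, DDX5 was at 596 ± 113 in nuclear CTRL and 772 ± 33.9 in mRNA CTRL (SD, n = 3), a log2 difference of -0.37 that stood above only 12.6% of 16728 genes. The EIF4A1 count stood at 20.5 CPM in nuclei and 4.36 in mRNA, a log2 difference of 2.11. Fraction and library kit differ together here, and this contrast is given as a description.

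**Figure D1:**
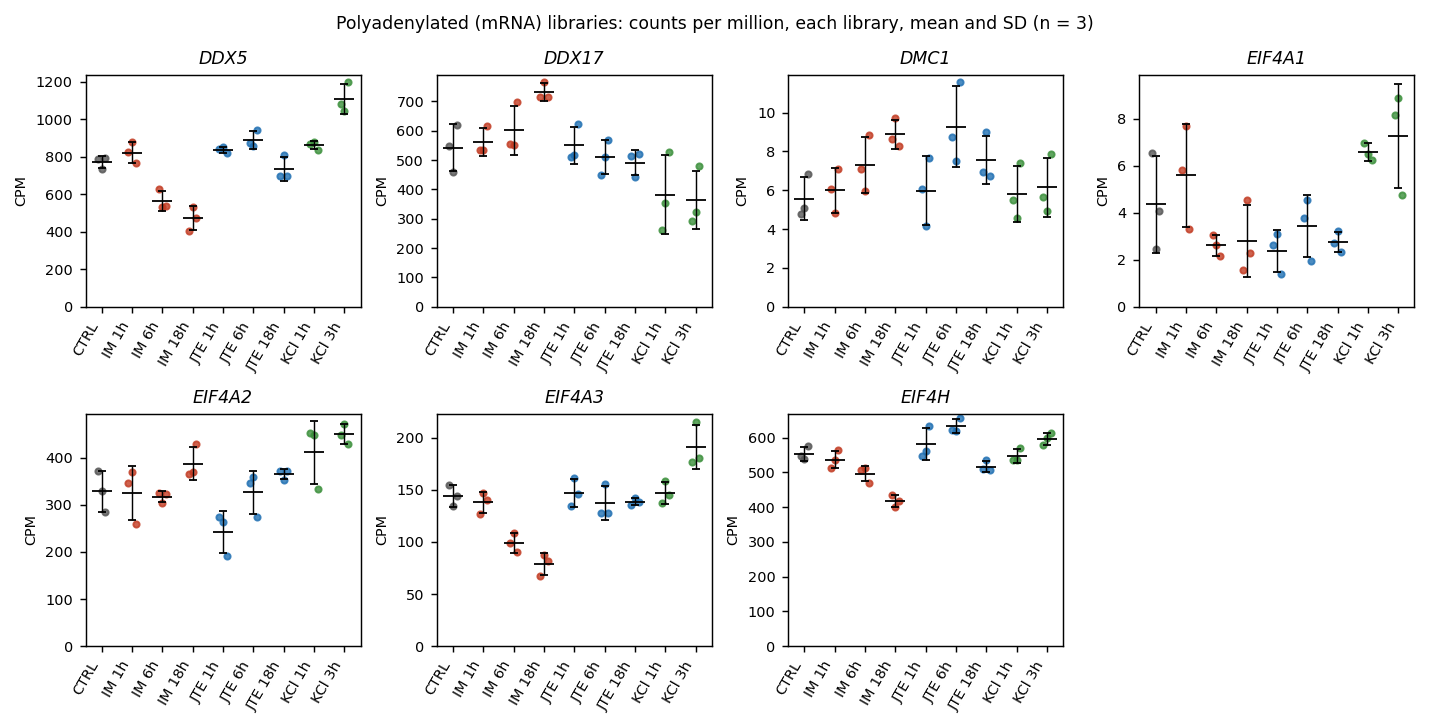
Level in CPM (y axis, from 0) of the 7 genes in each of the 27 mRNA libraries by group (x axis); points are libraries, horizontal bars the mean and whiskers the SD (n = 3). DDX5, EIF4A3 and EIF4H are lowest at IM 18h, while DDX17 is highest there, at 731 CPM.

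The first question was whether imatinib changes these helicases, and when. At IM 1h none of the 7 genes passed the call used throughout, which asks for a Benjamini-Hochberg adjusted p below 0.05 in the edgeR quasi-likelihood test and for an absolute log2 change larger than 0.6. Across all genes that call was met by 0.0166% in mRNA and 0.0456% in nuclei at IM 1h, and no member had an unadjusted p under 0.05 in mRNA, while 1 of 7, EIF4A1, had one in nuclei. DESeq2 also called 0. At IM 6h there was still no called member in mRNA against 9.94% of all genes, but 2 of 7, DDX5 and EIF4A3, passed the adjusted p alone, against 16% of all genes. DESeq2 called 0 as well, and 3 of 7 had an unadjusted p under 0.05. By IM 18h DDX5 and EIF4A3 were called lower and DMC1 higher in mRNA, 3 of 7 against 30.5% of all genes. In nuclei at IM 18h, DDX5, EIF4A1 and EIF4A3 were called lower and DMC1 higher, 4 of 7 against 32.6% of all genes. Since so many genes were called at IM 18h, these counts say little about the 7 as a group, and the values of the single genes carry the description. On the adjusted p alone, EIF4H joined in mRNA (4 of 7, background 43.8%), and EIF4H and DDX17 joined in nuclei (6 of 7, background 45.6%).

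DDX5 was lower at IM 6h and at IM 18h, and not at IM 1h. Its mRNA CTRL libraries held 790, 733 and 793 CPM, the IM 1h libraries 825, 877 and 766, the IM 6h libraries 627, 532 and 536, and the IM 18h libraries 405, 535 and 476. Every IM 6h and IM 18h library lay below every CTRL library, while IM 6h and IM 18h overlapped and the test between them did not pass (log2 -0.26, adjusted p = 0.0796). The log2 fold change was -0.45 ± 0.092 (SE) at IM 6h (adjusted p = 0.00151) and -0.71 ± 0.092 at IM 18h (adjusted p = 1.89e-06, edgeR). In nuclei, CTRL held 723, 558 and 507 CPM and IM 18h 413, 393 and 328, again without overlap, a log2 change of -0.66 ± 0.17 (SE, adjusted p = 0.00374). The nuclear CTRL values of DDX5 were spread widely, with replicate 1 the highest in all 5 nuclear groups. Without nuclear CTRL replicate 1 the change was -0.45, and without nuclear IM 18h replicate 3 it was -0.57, both past the adjusted p but short of the fold.

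EIF4A3 fell further than DDX5. From 154, 134 and 144 CPM in mRNA CTRL it went to 99.0, 109 and 89.9 at IM 6h and to 66.9, 87.4 and 82.1 at IM 18h. None of these treated libraries reached the lowest CTRL library. The log2 fold change was -0.54 ± 0.11 at IM 6h (SE, adjusted p = 0.00169) and -0.87 ± 0.11 at IM 18h (adjusted p = 1.67e-06). In nuclei EIF4A3 held 139, 137 and 147 CPM in CTRL and 59.6, 70.1 and 70.9 at IM 18h, a 0.475-fold level (log2 -1.08 ± 0.10 SE, adjusted p = 5.27e-08). The 2 sets of nuclear libraries were far apart compared with the spread within each.

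EIF4H, the eIF4A cofactor, moved by less but with little spread. Its mRNA CTRL libraries held 547, 538 and 576 CPM and its IM 18h libraries 436, 400 and 419, so the groups did not overlap. The log2 fold change of -0.40 ± 0.068 (SE, adjusted p = 4.6e-05) passed the adjusted p and not the fold, and the nuclear change was -0.37 ± 0.078 (adjusted p = 0.000711). From IM 6h to IM 18h EIF4H also declined, by -0.25 on the log2 scale (adjusted p = 0.0257), the one member of 7 to pass in that direct comparison, where 8.34% of all genes did. No member met the full call between IM 18h and IM 6h in edgeR or DESeq2, against 4.41% of all genes, and 3 of 7 had an unadjusted p under 0.05.

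DDX17 went the other way from its paralog. The mRNA libraries held 548, 461 and 619 CPM in CTRL and 716, 765 and 713 at IM 18h. All IM 18h libraries were above all CTRL libraries, yet the mRNA test did not pass (log2 fold change 0.43 ± 0.19 SE, adjusted p = 0.0691). With the replicate numbers as a block it passed the adjusted p and not the fold (0.45, adjusted p = 0.00648, and 0.00462 with the numbers of mRNA CTRL 1 and 2 exchanged). In nuclei the CTRL libraries were tight, at 647, 637 and 657 CPM, and IM 18h gave 1081, 862 and 861. There DDX17 rose by 0.53 ± 0.096 on the log2 scale (SE, adjusted p = 0.000139), short of the 0.6 fold threshold. Replicate 3 was the highest of the 3 mRNA libraries for DDX17 in 8 of 9 groups, which widened its error in that set.

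DMC1, the upstream neighbour, rose in the same samples. It held 4.79, 5.08 and 6.86 CPM in mRNA CTRL and 8.63, 9.74 and 8.31 at IM 18h (log2 fold change 0.67 ± 0.24 SE, adjusted p = 0.0268). In nuclei it went from 6.03, 6.06 and 5.50 to 12.2, 8.65 and 9.30 CPM (0.78 ± 0.17, adjusted p = 0.000916). Neither pair of groups overlapped. The mRNA call was lost on leaving out 1 of 4 libraries, namely the first or second of CTRL or of IM 18h (adjusted p = 0.108, 0.0882, 0.0521 and 0.0883), and without the filter on low counts the log2 change was 0.59.

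EIF4A2 did not pass any test under imatinib. Its mRNA level was 372, 330 and 285 CPM in CTRL and 365, 369 and 428 at IM 18h, groups that overlap (log2 fold change 0.24, 95% interval -0.04 to 0.52, adjusted p = 0.181). In nuclei the change was -0.09 (95% interval -0.31 to 0.14, adjusted p = 0.578). The count of EIF4A1 did move in nuclei, from 17.7, 20.3 and 23.6 CPM in CTRL to 6.78, 9.80 and 10.2 at IM 18h (log2 fold change -1.21 ± 0.16 SE, adjusted p = 3.58e-06). The same count in mRNA libraries was 6.56, 2.46 and 4.07 CPM in CTRL and 1.57, 4.53 and 2.31 at IM 18h, with overlap and no call (log2 -0.63, adjusted p = 0.204). It was called without the filter on low counts (-0.71, adjusted p = 0.0376) and without IM 18h replicate 2 (-1.19, adjusted p = 0.0354). At IM 1h the nuclear EIF4A1 count was 15.8, 15.7 and 15.8 CPM, below every CTRL library. Its adjusted p was 0.879, and 0.0412 with the replicate numbers as a block. Those numbers were taken to pair the nuclear libraries from correlations in these same data, as the labels do not state it.

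**Figure D2:**
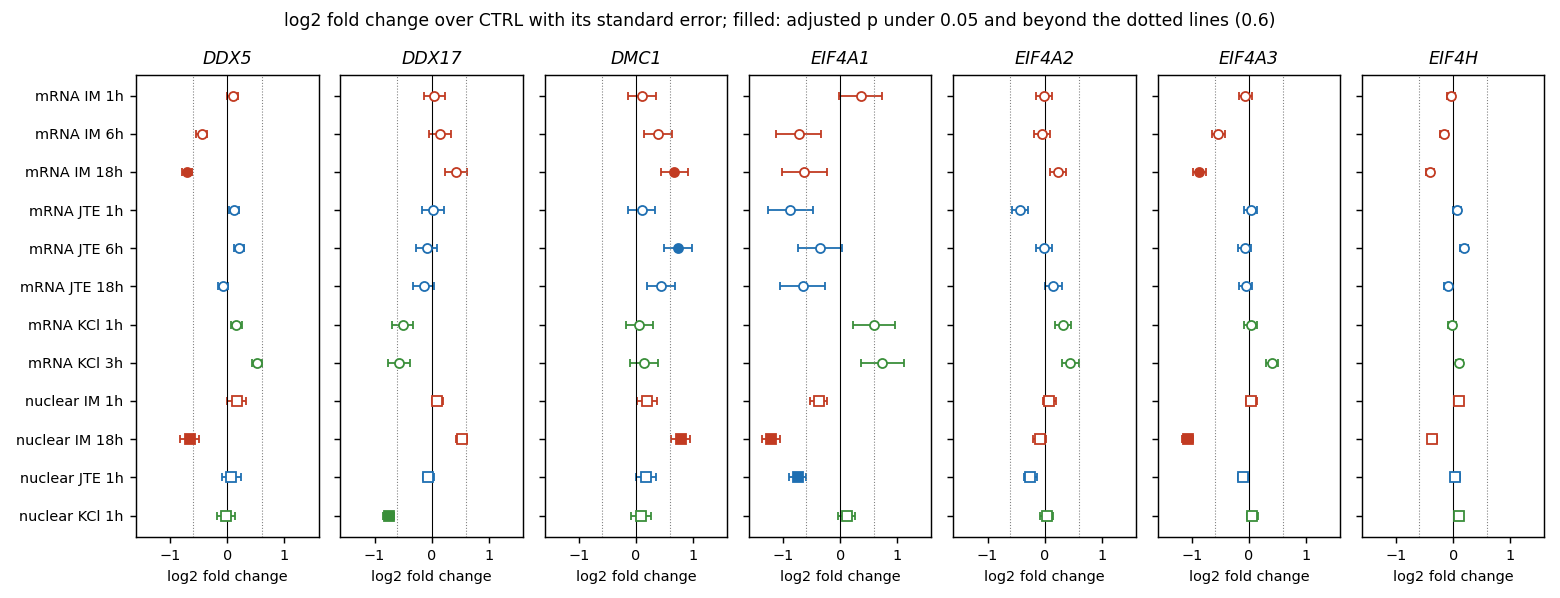
log2 fold change over CTRL (x axis) with its standard error for each gene (panels) in the 8 mRNA and 4 nuclear comparisons (y axis; circles mRNA, squares nuclear; red imatinib, blue JTE-607, green KCl). Filled symbols pass the adjusted p and the 0.6 threshold marked by dotted lines, as for EIF4A3 at IM 18h in both fractions.

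At IM 18h the log2 changes of 6 of the 7 genes, the EIF4A1 count among them, had the same sign in the 2 fractions. EIF4A2 was the exception, with neither of its changes past the test. The share of all genes with the same sign is not given here. A test of the difference, nuclear minus mRNA, called 0 of 7 genes at IM 18h by edgeR, where 0.0901% of all genes were called, and 0 of 7 had an unadjusted p under 0.05. The DESeq2 fit also called 0. For DDX5 the difference of the log2 changes was 0.11 (95% interval -0.26 to 0.48), for DDX17 0.15 (-0.16 to 0.46), and for EIF4A3 -0.15 (-0.46 to 0.16). The intervals were wider for DMC1 (-0.34 to 0.66), EIF4A2 (-0.60 to 0.06) and the EIF4A1 count (-1.47 to 0.42). All these intervals come from the fit without a replicate block, in which sizable differences between the fractions were not resolved.

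Because DDX5 and DDX17 are partly interchangeable, their ratio was followed in each library as log2 of DDX17 over DDX5 in reads per kb of exon. In mRNA CTRL it was -0.98, -1.12 and -0.81, that is, DDX17 lay below its paralog. It was -0.62, -0.40 and -0.07 at IM 6h, and 0.37, 0.07 and 0.13 at IM 18h. Where 0 falls depends on the exon lengths used, 9995 bases for DDX17 and 7319 for DDX5. These lengths include bases shared with other genes, where pairs could be dropped, and only 6647 bases were unique to DDX5. A value close to 0, as at mRNA IM 18h, therefore does not tell which gene was higher. Differences between groups do not depend on the lengths, but a change of isoform in either gene can enter them. The mean ratio differed from CTRL by 0.60 at IM 6h and 1.16 at IM 18h. Nuclear libraries shifted by 1.17 at IM 18h, from -0.31 ± 0.27 to 0.86 ± 0.15 (SD, n = 3). With KCl the mean ratio differed from CTRL by -1.12 at KCl 3h in mRNA and by -0.74 at KCl 1h in nuclei. With JTE-607 the largest difference was -0.29, at JTE 6h. The groups did not overlap CTRL at IM 6h, IM 18h, JTE 6h and KCl 3h in mRNA and at IM 18h and KCl 1h in nuclei. In each of these the exact 2-sided permutation test gave p = 0.1, the smallest p that 3 libraries against 3 allow, and 0.267 after adjustment over 24 ratio tests, so this exact test cannot reach 0.05 on a single ratio here. The same 24 tests included EIF4A2 over EIF4A1, whose denominator is not the canonical EIF4A1 mRNA and which gave no adjusted p below 0.267 either.

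**Figure D3:**
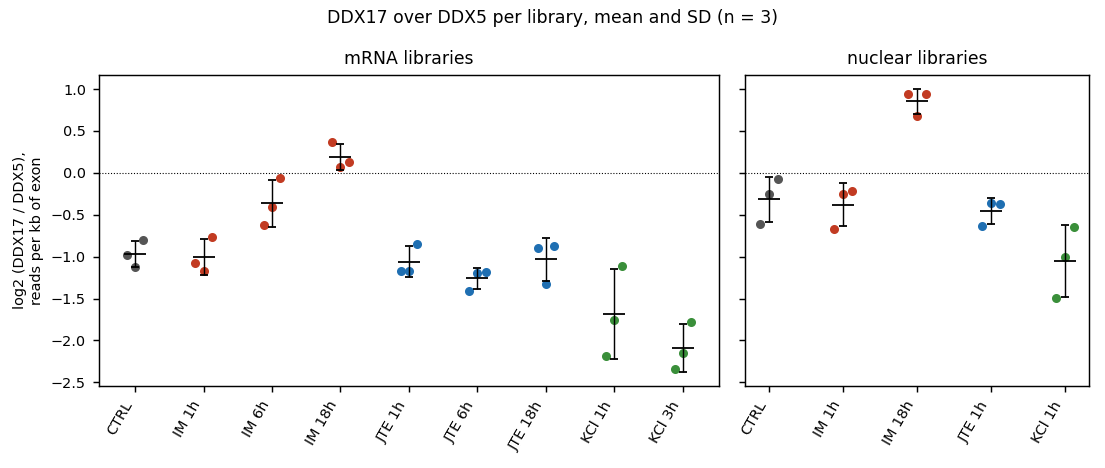
log2 of DDX17 over DDX5 in reads per kb of exon (y axis) in every mRNA library (left) and nuclear library (right) by group (x axis); points are libraries, bars the mean and whiskers the SD (n = 3). The mean ratio is highest at IM 18h in both fractions and lowest with KCl, at -2.09 for mRNA KCl 3h. The position of 0 depends on the exon lengths used.

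The promoters of the 3 genes that fell with imatinib at the mRNA level are shown because they share a short palindrome. Windows of 250 bases before to 50 after each annotated start, taken from RefSeq on GRCh38.p14, were available for all 7 genes, with 3 starts for DDX5, and were searched on both strands for 8 motifs, all spelled out in this paragraph. None of them contains another. CACGTG, the E-box bound by MYC and related factors, occurred in 3 of the 9 windows, 1 each of DDX5, EIF4A3 and EIF4H, and in 7.26% of 35116 windows of the whole table. The motifs were chosen with the expression results known, so the match is a description of these letters and not evidence of binding. In the windows the E-box is in capitals.
DDX5, chr17:64506589-64506888, minus strand: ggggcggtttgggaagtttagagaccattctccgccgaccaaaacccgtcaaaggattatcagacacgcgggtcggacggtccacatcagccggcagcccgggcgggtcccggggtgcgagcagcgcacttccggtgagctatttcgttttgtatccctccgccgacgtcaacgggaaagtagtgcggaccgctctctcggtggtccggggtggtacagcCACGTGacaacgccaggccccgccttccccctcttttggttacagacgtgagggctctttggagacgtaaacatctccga
EIF4A3, chr17:80147079-80147378, minus strand: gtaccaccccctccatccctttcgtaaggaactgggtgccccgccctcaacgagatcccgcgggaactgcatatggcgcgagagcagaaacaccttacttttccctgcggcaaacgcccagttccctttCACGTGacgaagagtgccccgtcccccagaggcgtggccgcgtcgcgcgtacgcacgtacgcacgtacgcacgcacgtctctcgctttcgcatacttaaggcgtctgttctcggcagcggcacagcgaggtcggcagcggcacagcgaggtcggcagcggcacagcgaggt
EIF4H, chr7:74174106-74174405, plus strand: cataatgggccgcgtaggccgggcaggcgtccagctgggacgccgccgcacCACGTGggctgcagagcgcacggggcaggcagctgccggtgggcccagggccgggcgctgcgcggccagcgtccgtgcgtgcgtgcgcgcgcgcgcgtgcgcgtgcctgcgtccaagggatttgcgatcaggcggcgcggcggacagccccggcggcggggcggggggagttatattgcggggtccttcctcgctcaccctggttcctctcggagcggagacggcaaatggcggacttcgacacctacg
Counted from the annotated start, the first letter of the E-box lies at -30 in DDX5, at -121 in EIF4A3 and at -199 in EIF4H. Among the other motifs, TTCNNNGAA, the spacing read by STAT factors, was in the DDX17 window alone (7.66% of all windows), and AGATAA and TGACGTCA were in none of the 9. TATAAA was in the EIF4A2 window and 1 DDX5 window (11.5% of all), CCAAT in EIF4A1 and DDX5 (34.6%), CTTCCG in EIF4A2, EIF4A1 and DDX5 (19.5%), and GGGCGG in 5 genes (45.0%).

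The next question was whether blocking 3′-end cleavage with JTE-607 gives the same response. It moved few of these genes. At JTE 1h no member was called in mRNA, where 0.851% of all genes were, and none passed the adjusted p alone, where 0.984% did, with 2 of 7 at an unadjusted p under 0.05 and 0 called by DESeq2. The 2 were EIF4A1 and EIF4A2. At JTE 6h the single call was DMC1, 1 of 7 against 13.2% of all genes, and EIF4H passed the adjusted p alone, making 2 of 7 against 18.1%. At JTE 18h no member passed either rule in edgeR (backgrounds 5.39% and 9.19%), none was called by DESeq2 and 0 had an unadjusted p under 0.05. In nuclei at JTE 1h, the EIF4A1 count was called lower, 1 of 7 against 8.52%, and 9.86% of all genes passed the adjusted p alone.

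DMC1 held 8.74, 7.51 and 11.6 CPM at JTE 6h, all above the highest CTRL library, a log2 fold change of 0.74 ± 0.24 (SE, adjusted p = 0.0344). Its downstream neighbour DDX17 held 450, 512 and 569 CPM in the same libraries, overlapping CTRL (log2 fold change -0.09, 95% interval -0.46 to 0.28). The DMC1 call was lost when either of CTRL replicates 1 and 2 or JTE 6h replicates 1 and 3 was left out (adjusted p between 0.055 and 0.19), and when only the 2 groups were fitted (0.0837).

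EIF4A2 was lowest at JTE 1h among the 9 mRNA groups. Its libraries held 274, 264 and 191 CPM, all below CTRL and also below the IM 6h group next to it in the order. The log2 fold change of -0.44 ± 0.14 did not pass (SE, adjusted p = 0.216). Nuclear EIF4A2 at JTE 1h was 257, 285 and 312 CPM against 352, 327 and 335 in CTRL, again without overlap and without passing (log2 -0.25, adjusted p = 0.205). The nuclear EIF4A1 count dropped from 17.7, 20.3 and 23.6 to 10.6, 11.9 and 14.2 CPM (log2 -0.75 ± 0.15 SE, adjusted p = 0.00292).

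EIF4H was higher at JTE 6h and not at JTE 1h or JTE 18h. It held 622, 620 and 656 CPM at JTE 6h, above CTRL in every library (log2 fold change 0.19 ± 0.068 SE, adjusted p = 0.0487), and 509, 535 and 507 at JTE 18h. Between these times it fell by 0.29 on the log2 scale (adjusted p = 0.00323) and DDX5 fell by 0.28 (adjusted p = 0.0311), 2 of 7 on the adjusted p against 21.8% of all genes, and 0 of 7 on the full call in edgeR or DESeq2, against 13.4%.

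Set directly against JTE 18h, IM 18h had lower DDX5 (log2 -0.64, adjusted p = 7.49e-06) and lower EIF4A3 (log2 -0.81, adjusted p = 4.12e-06), 2 of 7 called against 30.3% of all genes. DDX17 was higher by 0.57 (adjusted p = 0.0172) and EIF4H lower by 0.31 (adjusted p = 0.000867), for 4 of 7 on the adjusted p alone, against 44.2%. All 3 JTE 18h libraries of DDX5 (697 to 809 CPM) were above all 3 of IM 18h (405 to 535 CPM). Without IM 18h replicate 1 the DDX5 difference was -0.54 and without JTE 18h replicate 2 it was -0.58, short of the fold.

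KCl gave a different pattern, in which DDX17 was the gene that fell. In nuclei at KCl 1h, DDX17 went from 647, 637 and 657 CPM to 351, 367 and 430, well below all CTRL libraries, a 0.592-fold level (log2 -0.76 ± 0.097 SE, adjusted p = 3.92e-06). It was the 1 member of 7 to pass either rule there, against backgrounds of 23.8% and 27.2% of all genes. DDX5 in the same nuclei was at 725, 541 and 493 CPM, overlapping its CTRL libraries (log2 -0.02, 95% interval -0.35 to 0.30). In mRNA at KCl 1h DDX17 held 262, 355 and 527 CPM, with replicate 3 inside the CTRL range and no call (log2 -0.51 ± 0.19 SE, adjusted p = 0.14, and 0.00883 with the replicate block), and 0 of 7 members passed either rule in edgeR, against 5.45% and 6.24% of all genes, with 2 of 7 at an unadjusted p under 0.05 and 0 called by DESeq2. Without KCl 1h replicate 3 the change was -0.81 (adjusted p = 0.00558), and without replicate 3 of every mRNA group, an alternative chosen after the values were seen, it was -0.72 (adjusted p = 0.00349). By KCl 3h the libraries held 291, 322 and 478 CPM, and DDX17 was lower on the adjusted p (log2 -0.58 ± 0.19 SE, adjusted p = 0.0393). Without KCl 3h replicate 3 it was -0.82 (adjusted p = 0.0042).

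At KCl 3h the paralog DDX5 rose to 1081, 1044 and 1199 CPM, its highest level in any group and above every library of every other mRNA group (log2 fold change over CTRL 0.52 ± 0.092 SE, adjusted p = 0.000219). EIF4A3 likewise was at its highest, 176, 216 and 181 CPM (0.41 ± 0.11, adjusted p = 0.0117), and EIF4A2 reached 449, 472 and 429 CPM (0.45 ± 0.14, adjusted p = 0.0291). With DDX17 these made 4 of 7 on the adjusted p alone, against 15.8% of all genes, while 0 of 7 met the full call in edgeR or DESeq2, against 11.9%, and 4 of 7 had an unadjusted p under 0.05. From KCl 1h to KCl 3h, DDX5 rose by 0.36 (adjusted p = 0.0176) and EIF4A3 by 0.38 (adjusted p = 0.0472), 2 of 7 against 4.89%, and none met the full call in edgeR or DESeq2, against 3.29%. EIF4H, at 579, 600 and 612 CPM, was above all CTRL libraries by a small margin that did not pass (adjusted p = 0.331).

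KCl and JTE-607 could be set side by side at 1 h. In mRNA, EIF4A2 was higher with KCl by 0.76 ± 0.14 (SE, adjusted p = 0.0013), with 454, 448 and 335 CPM against 274, 264 and 191, and the EIF4A1 count was higher by 1.46 (adjusted p = 0.0234), 2 of 7 on either rule, against 4.29% and 5.47% of all genes. The EIF4A2 call was lost when only these 2 groups were fitted (adjusted p = 0.0739), and that of EIF4A1 on leaving out each KCl 1h library in turn, or JTE 1h replicate 1 or 3 (adjusted p from 0.0563 to 0.136). In nuclei, DDX17 was lower with KCl (log2 -0.70, adjusted p = 1.71e-05) and the EIF4A1 count higher by 0.86 (adjusted p = 0.000292), 2 of 7 on either rule, against 15.9% and 17.7%. Nuclear EIF4A2 was higher by 0.29 without passing (adjusted p = 0.0948), and passed with the replicate block (0.028). For JTE 1h and KCl 1h, as for IM 1h, tests of nuclear minus mRNA called 0 of 7 (backgrounds 0.0605%, 0.668% and 0%), with no unadjusted p under 0.05 and none called by DESeq2. With the replicate block and the numbers of mRNA CTRL 1 and 2 exchanged, the KCl 1h difference passed the adjusted p for EIF4A2 (-0.39, adjusted p = 0.000806) and DDX5 (-0.29, adjusted p = 0.00231), short of the fold. The interval was widest for the KCl response of DDX17, -0.35 (95% interval -0.87 to 0.16), apart from the EIF4A1 and DMC1 counts.

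**Figure D4:**
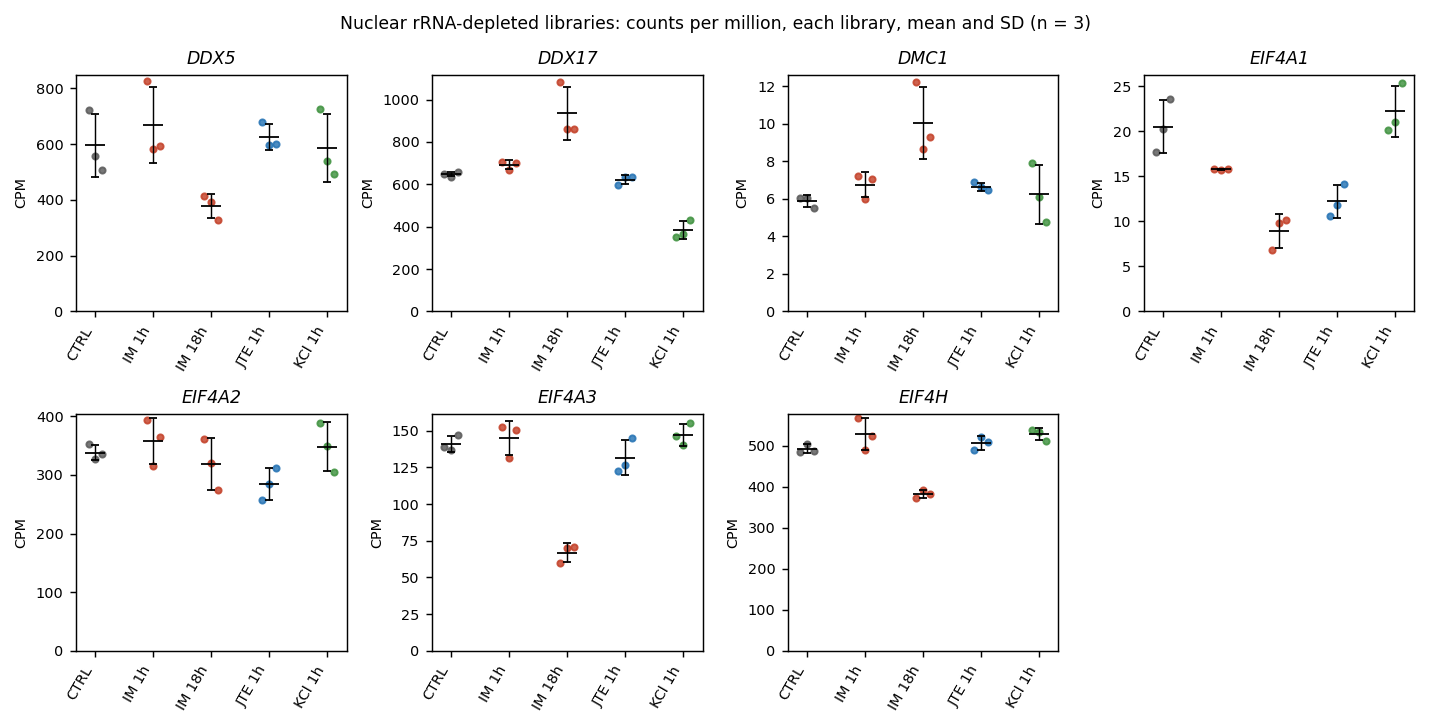
Level in CPM (y axis, from 0) of the 7 genes in each of the 15 nuclear libraries by group (x axis); points are libraries, bars the mean and whiskers the SD (n = 3). DDX17 spans 383 CPM at KCl 1h to 935 CPM at IM 18h, and DDX5, EIF4A3 and EIF4H are lowest at IM 18h.

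Ordered by mean level over the 9 mRNA groups, DDX17 ran from IM 18h (731 CPM) through IM 6h, IM 1h, JTE 1h, CTRL, JTE 6h, JTE 18h and KCl 1h to KCl 3h (364 CPM), and only IM 18h and IM 6h, of the 8 neighbouring pairs, did not overlap. The EIF4A3 order had 3 clear steps, below KCl 3h, above IM 6h and between IM 6h and IM 18h. In EIF4H the top group, JTE 6h, and the bottom group, IM 18h, were each separate from their neighbour. The DMC1 and EIF4A1 orders had no step without overlap in mRNA. In nuclei all 4 neighbouring pairs of DDX17 were apart, in the order IM 18h, IM 1h, CTRL, JTE 1h and KCl 1h, and 3 of 4 for the EIF4A1 count. Nuclear DDX17 did not pass the test against CTRL at IM 1h or JTE 1h. The groups were sorted by mean first, and the share of all genes with such steps is not given here.

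Over the means of the 9 mRNA groups, on a log2(CPM + 0.5) scale, DDX5 and EIF4A3 ran together (Pearson r = 0.971) and DDX17 ran against both (-0.823 and -0.83). EIF4H went with DDX5 at 0.903, whereas EIF4A2 was near 0 with DDX5 (0.10) and EIF4A3 (0.09). Group means over shared libraries are not independent points, so these are descriptions over 9 points. Among 8817 genes at 10 CPM or more, those most like DDX5 were CFAP20, HSPA5 and MTREX (r from 0.986 to 0.988), and those most like EIF4A3 were HSPA5, SLC4A2 and GATA2 (0.988 to 0.994). DDX17 was most like DMAC2L (0.985), ACCS (0.97) and BAHCC1 (0.969), and EIF4H most like LYRM4 (0.998), FUCA2 (0.987) and ATP5PF (0.986). The nearest genes to DMC1 were ZDHHC3, SIK2 and CDK19 (0.952 to 0.968). For EIF4A2 they were NABP1, APC and MEX3B (0.879 to 0.938), and for the EIF4A1 count CDKN2AIP, SNHG12 and MAP4K5 (0.923 to 0.954).

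Set beside the rest of the family, the fall of DDX5 and EIF4A3 with imatinib was the common direction and DDX17 was unlike most. Of 28 other DEAD-box helicases tested, 14 were called lower and 0 higher at IM 18h in mRNA, and 20 lower and 0 higher in nuclei, where 30.5% and 32.6% of all genes were called in either direction. Their median log2 change was -0.64 in mRNA and -0.73 in nuclei, against 0.04 and 0.0 over all genes. DDX21, a nucleolar helicase of ribosome production, went from 1398 ± 132 to 450 ± 69.2 CPM in mRNA (SD, n = 3; log2 -1.63, adjusted p = 9.67e-09). DDX31 and DDX10, which also serve ribosome assembly, changed by -1.51 and -1.49 on the log2 scale, and DDX51 by about as much (adjusted p = 8.24e-06). Only DDX59 and DDX6 were higher on the adjusted p, by 0.34 and 0.30 in mRNA. At IM 6h, 8 of the 28 were already called lower (all genes 9.94%), with DDX31 at -1.21 and DDX21 at -1.14. With JTE-607, 2 of them were lower at JTE 6h (all genes 13.2%), DDX28 (-1.70) and DDX56 (-0.81), 1 at JTE 18h (all genes 5.39%), DDX28 (-0.89), and 2 in nuclei at JTE 1h (all genes 8.52%), DDX47 (-0.77) and DDX28 (-0.73). With KCl the calls were 1 of 28 at KCl 1h and 3 at KCl 3h in mRNA and 1 in nuclei at KCl 1h, against 5.45%, 11.9% and 23.8% of all genes. DDX47 was lower at each time, from 1.17 CPM in mRNA CTRL to 0.269 at KCl 1h and 0.113 at KCl 3h, low levels throughout, and in nuclei it changed by -1.73 on the log2 scale. At KCl 3h DDX28 was also lower (adjusted p = 5.85e-05) and DDX3X, a helicase of translation, higher (0.85).

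**Figure D5:**
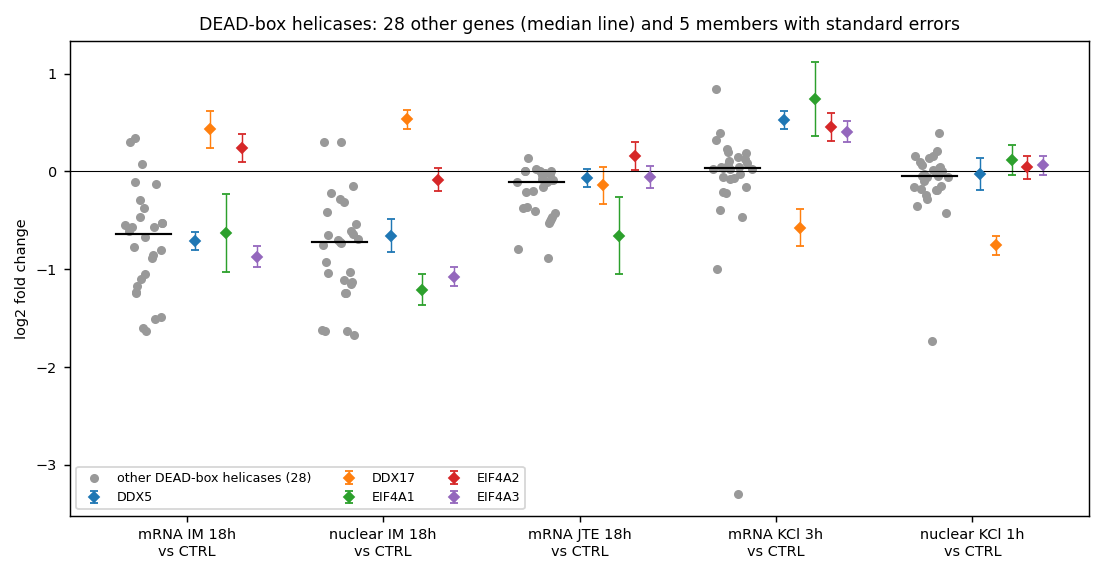
log2 fold change over CTRL (y axis) in 5 comparisons (x axis) for 28 other DEAD-box helicases (grey points, line at the median) and for 5 of the genes described here with their standard errors (diamonds). At IM 18h most grey points lie below 0, with a median of -0.64 in mRNA, and DDX17 lies above it at 0.43.

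Among 10 genes of eIF4F and its regulators, 5 were called lower and 2 higher at IM 18h in each fraction, against 30.5% of all genes called in mRNA and 32.6% in nuclei, with a median of -0.44 in mRNA and -0.48 in nuclei. EIF4G1, the scaffold that holds eIF4A, lay between 926 and 1107 CPM in CTRL and between 430 and 570 CPM at IM 18h (log2 -0.95 ± 0.15 SE, adjusted p = 2.57e-05), and its relative EIF4G2 changed by -0.96. PDCD4, which binds eIF4A and blocks it, lay between 23.5 and 52.4 CPM in CTRL and between 119 and 145 CPM at IM 18h (log2 1.77 ± 0.42 SE, adjusted p = 0.0017), and it rose by 1.94 in nuclei. EIF4EBP1, a repressor of the cap-binding protein, was lower at IM 18h in mRNA (log2 -0.89, adjusted p = 0.00195) and at JTE 18h (log2 -0.87, adjusted p = 0.0125), the only call of the list there. It held a mean of 58.5 CPM in mRNA CTRL. The more abundant EIF4EBP2 of the same list went the other way, from 313 CPM in mRNA CTRL to 535 at IM 18h and 442 at JTE 18h. At IM 1h, IM 6h, JTE 1h and JTE 6h and with KCl no gene of this list was called against CTRL, although 2 to 3 passed the adjusted p alone in mRNA at IM 6h, JTE 6h and KCl 3h.

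The other partner lists held fewer calls. Of 14 exon junction complex and nonsense-mediated decay genes, 2 were called lower at IM 18h in mRNA, MAGOHB (-0.97) and RBM8A (-0.69), both core partners of EIF4A3, and 3 in nuclei, where MAGOH joined them (-0.64). These shares lie below the 30.5% and 32.6% of all genes called there. The list median was -0.19 in each fraction. At JTE 6h, where 13.2% of all genes were called, RBM8A was higher by 0.65 and SMG5, a decay factor, lower (-0.88). Of 10 Microprocessor and DDX5/DDX17 partner genes, ILF2 was called lower at IM 18h in mRNA (-0.62) and nuclei (-0.69), where 30.5% and 32.6% of all genes were called. DGCR8, the RNA-binding subunit of the Microprocessor, was the 1 called with KCl, at -0.88 in mRNA KCl 3h and -0.61 in nuclear KCl 1h. Of all genes, 11.9% and 23.8% were called there, shares that 1 of 10 does not exceed. Of 8 meiotic recombination genes, 5 were measured, and SYCP3 was higher at IM 6h (0.85), at IM 18h in mRNA (1.28) and nuclei (0.81), and lower at KCl 1h in mRNA (-0.98) and nuclei (-0.86). BRCA2 was higher at IM 18h in mRNA (0.84).

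The flanking genes bear on what the counts can hold. POLG2, a mitochondrial polymerase subunit gene, starts 2579 bases downstream of the counted end of DDX5 on the same strand, and moved with it. It fell at IM 18h in mRNA from 36.4, 31.6 and 30.9 CPM to 16.9, 23.8 and 21.4 (log2 -0.67 ± 0.13 SE, adjusted p = 0.000156) and in nuclei (-0.79), and at KCl 3h it was higher by 0.47 (adjusted p = 0.00897). With JTE-607, however, POLG2 went down to 19.9, 20.5 and 17.8 CPM at JTE 18h (log2 -0.76, adjusted p = 0.00037) while DDX5 stayed at 697 to 809 CPM. KDELR3, an endoplasmic reticulum receptor gene that runs toward DDX17 and overlaps its end by 8 exon bases, was lower at JTE 6h (-0.72) and JTE 18h (-0.70). SENP3, directly upstream of EIF4A1, was lower at IM 18h in mRNA (-0.84) and nuclei (-1.21), the same direction as the EIF4A1 count. The SENP3-EIF4A1 readthrough gene was near the limit of counting, at 1 to 7 counts in CTRL libraries, 11 to 18 at JTE 6h (log2 1.69, adjusted p = 0.0145) and 0 to 1 at IM 18h. The lncRNA ENSG00000264772, which spans EIF4A1, held 0.313, 0.319 and 0.792 CPM in nuclear CTRL and 1.98, 2.23 and 1.65 at JTE 1h (log2 2.04 ± 0.37 SE, adjusted p = 0.000999). At the EIF4A2 start, the antisense lncRNA ENSG00000263826 was lower in nuclei at IM 18h (-0.62), JTE 1h (-0.53) and KCl 1h (-0.54). Pairs that lay wholly in stretches that are exon of the same 2 genes were dropped. Since strand was not used, a read of one gene that lies only within exon of the other was counted for the other.

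The genes also carry small RNAs. DDX5, EIF4A1, EIF4A2 and EIF4H enclose 12 annotated small RNA genes, 8 of them snoRNAs of the eIF4A genes, and 11 of the 12 were at 0 in all 42 libraries. Each of these 11 lies wholly within annotated exon of its host, so any pair touching it also touched the host. Such a pair was not counted for the small RNA, and a 0 here says nothing of it. The exception was MIR590 (chromosome 7, 74191198 to 74191294, plus strand), inside an intron of EIF4H. Its mature products are printed as listed by RefSeq, with the seed, bases 2 to 8, in capitals.
hsa-miR-590-5p: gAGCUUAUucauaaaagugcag
hsa-miR-590-3p: uAAUUUUAuguauaagcuagu
Pairs counted at MIR590 come from long RNA of the EIF4H intron, since these libraries were not made for small RNA. At KCl 3h they fell from 1.16, 0.733 and 0.948 CPM in mRNA CTRL to 0.147, 0.189 and 0.495 (log2 -1.76 ± 0.60 SE, adjusted p = 0.0475), on 3 to 10 counts a library. In nuclei at KCl 1h they fell from 1.39, 1.37 and 1.58 CPM to 0.693, 0.977 and 0.437 (log2 -1.03 ± 0.27 SE, adjusted p = 0.00589). Over the same comparisons the exon count of EIF4H differed from CTRL by 0.11 and 0.10 on the log2 scale without passing.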

How the data were processed

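The authors trimmed adapters, removed duplicate reads (fastp) and aligned uniquely mapping pairs to GRCh38.p14 with STAR. They deposited raw counts of read pairs per gene from featureCounts, without strand and without pairs ambiguous between genes. The annotation release is not given in the sources used here. Pairs per library are given above. Symbols came from a gene name table (41836 of 58243 IDs matched). The members and lists were chosen with earlier results of these data known. Counts of each fraction were filtered (filterByExpr), TMM-scaled and fitted in 1 edgeR 4.0.16 quasi-likelihood model (R 4.3.3), with p-values adjusted over 18095 mRNA or 21929 nuclear genes, called at adjusted p under 0.05 and log2 fold change beyond 0.6. Responses of the 2 fractions were compared by an interaction term. The scripts were tested on simulated data. The 95% intervals are normal intervals on the fitted log2 fold change. Named genes were the 7 members, overlapping, enclosed and adjacent genes within 50 kb, up to 4 called genes per list with the largest changes, and the 3 most alike genes; DDX59 and DDX6 were named after their values were seen. Same-numbered nuclear libraries deviated together with CTRL (r 0.233 to 0.890 in 12 of 12), so the numbers were taken to pair them. In mRNA 7 of 24 exceeded 0.1 (-0.363 to 0.876). The study's own depth list gives the totals of mRNA CTRL 1 and 2 under exchanged numbers, against the column names and titles used here. With those 2 exchanged, 23 of 24 exceeded 0.1 (0.0546 to 0.876). Between 2 treated mRNA groups, which the exchange does not touch, 73 of 84 exceeded 0.1 (-0.296 to 0.844). Same-numbered treated mRNA libraries thus mostly deviated together, while which CTRL numbering is right was not settled. Group comparisons without the block do not depend on it. The study's methods describe the 3 replicates of each treatment as separate experiments on this cell line. Alternatives were RLE and upper quartile scaling, DESeq2 1.42.0, no filter, no fold threshold, a replicate block (also with mRNA CTRL 1 and 2 exchanged, added after the data were seen), 2 groups alone, thinned counts and each library left out.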

Additional observations from a re-analysis of the deposited data

How the results depend on the processing

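Dropping the fold threshold moved the number of members called from 0 to 2 at mRNA IM 6h, from 1 to 2 at JTE 6h, from 0 to 4 at KCl 3h, from 0 to 1 between IM 18h and IM 6h, from 0 to 2 between JTE 18h and JTE 6h and between KCl 3h and KCl 1h, and from 2 to 4 between IM 18h and JTE 18h. Without the filter on low counts 1 was called at IM 6h and 1 at KCl 3h, both the EIF4A1 count, which was also called at mRNA IM 18h while DMC1 was not. Fitting only the 2 groups gave 0 at JTE 6h and 1 between KCl 1h and JTE 1h. Without replicate 3 of every mRNA group 1 was called at KCl 1h and 1 at KCl 3h, DDX17 each time. Leaving out each library in turn gave 0 to 1 at IM 6h, JTE 6h, KCl 1h and KCl 3h, 2 to 3 at mRNA IM 18h, 1 to 2 between IM 18h and JTE 18h and between KCl 1h and JTE 1h, and 3 to 4 at nuclear IM 18h; the fewer samples are part of each loss. Of 177 other counts of members under single alternatives, 174 equalled the main count, and 3 differed by at most 1.5 times, namely 4 at mRNA IM 18h and 6 at nuclear IM 18h without the fold threshold and 3 between IM 18h and JTE 18h with upper quartile scaling. In no alternative did a called change turn its direction. Upper quartile scaling moved the median of all genes to 0.109 at mRNA IM 18h and 0.121 at nuclear IM 18h, and with it nuclear DDX5 changed by -0.53, short of the fold, and nuclear DDX17 by 0.65, past it. With the replicate block, the counts of called members were the same, 3 at mRNA IM 18h and 4 at nuclear IM 18h among them. In mRNA, the numbering of the CTRL libraries was not settled. There the block put DDX17 past the adjusted p at IM 18h (0.00648) and KCl 1h (0.00883), and EIF4A2 at JTE 1h (0.0441). It did the same for DDX5 and EIF4A3 between IM 18h and IM 6h (0.0426 and 0.00994), and for DDX17 between KCl 1h and JTE 1h (0.00704). With the numbers of mRNA CTRL 1 and 2 exchanged, an alternative added after the data were seen, the same 6 results passed (adjusted p from 0.00172 to 0.0362), and the EIF4A1 count was called at KCl 3h (0.74, adjusted p = 0.0401), making 1 member there. For the ratio of DDX17 over DDX5 the blocked difference at mRNA IM 18h was 1.16, and the smallest exact sign-flip p with 3 pairs is 0.25. The low counts of DMC1, of EIF4A1 in mRNA and of SENP3-EIF4A1 limit their precision.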
